A study of Mus musculus with 3 samples.

Results

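The mouse mitochondrial genome supplied 37 of the 26661 rows of the deposited gene table: every row whose gene name begins with mt-, namely 13 mRNAs, 2 rRNAs and 22 tRNAs. Membership was set by name alone, and no measured value was used. Their values come from 3 poly(A)-selected RNA-seq libraries. All were made from RAW264.7, an established macrophage-like line from a virus-induced mouse tumour, labelled as wild type. One library came from cells given 10 µM harmine, a plant beta-carboline alkaloid, 0.5 h ahead of 0.5 µg/ml lipopolysaccharide (LPS, a bacterial cell-wall component sensed by toll-like receptor 4) for 6 h. One came from cells given LPS alone at that dose and time, and one from untreated control cells in common medium. Harmine without LPS was not analysed here. With 1 library in each group, differences have no replicate behind them, no p-value was computed, and nothing shows how far cultures vary. In bulk RNA, fewer mitochondrial genomes or cells and less transcript from each cannot be told apart.

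As background, the mitochondrial genome is a small circle read on both strands by its own polymerase, Polrmt, with the factors Tfam and Tfb2m. The long primary transcripts are cut at the tRNAs that lie between the other genes. Most of the mRNAs receive short A tails from Mtpap, and the Lrpprc-Slirp complex keeps most mRNAs stable. The mRNAs encode core subunits of respiratory complexes I, III, IV and V, whose other subunits are made from nuclear genes, and activated macrophages are known to lean on glycolysis with lowered respiration.

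All 37 rows matched the GENCODE M21 annotation of mm10 in start, end and strand. Of the mRNAs, 12 lie on the plus strand, and mt-Nd6 is the one on the minus strand; 14 tRNAs lie on the plus strand and 8 on the minus strand. Transcript ends are shown because A tails, by which these libraries were selected, also finish some of the stop codons. In 10 mRNAs the annotated sequence ends in a complete stop codon of the vertebrate mitochondrial code, and in 3 (mt-Co3, mt-Nd4 and mt-Cytb) it ends in a bare T. The last 21 bases are printed 5′ to 3′ on the gene's own strand, with the stop codon or its encoded part in capitals.
mt-Co1, MT:6852-6872, plus strand: acctatgtaaaagtaaaaTAA
mt-Co3, MT:9370-9390, plus strand: ccatttattgatgaggatctT
mt-Nd4, MT:11524-11544, plus strand: taattacaggcctgacaataT
mt-Cytb, MT:15268-15288, plus strand: aaatactaaaattatatccaT
mt-Nd6, MT:13552-13572, minus strand: atcgagattactcgagatTAA

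The mitochondrial mRNAs were among the most abundant transcripts in every library. Deposited counts on the 37 rows made up 4.06% of all counts with harmine plus LPS (95% Wilson interval 4.05 to 4.07), 3.18% with LPS (3.17 to 3.19) and 3.80% in control (3.79 to 3.81). The totals behind these shares were 56391972, 52845589 and 58169999 deposited counts for those libraries in the same order, with 4 counts taken as 1 read pair, and the intervals cover counting error only. The share was thus lowest with LPS alone and highest with harmine plus LPS. The mRNAs held nearly all of it: rRNA rows took 1.17% of the mitochondrial counts with harmine plus LPS, 1.26% with LPS and 1.14% in control, and tRNA rows 0.2203%, 0.217% and 0.266% in those libraries in the same order.

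Levels are in FPKM, which divides fragments by the length of the transcript and the size of the library. Among complex IV mRNAs, mt-Co1, the catalytic subunit of cytochrome c oxidase, had 7197 FPKM with harmine plus LPS, 6133 FPKM with LPS and 7097 FPKM in control, the highest FPKM of any gene in the harmine plus LPS and control libraries. mt-Co2, which accepts electrons from cytochrome c, had 4596 FPKM with harmine plus LPS, 3801 FPKM with LPS and 4427 FPKM in control. mt-Co3, a structural core subunit, had 2945 FPKM with harmine plus LPS, 2384 FPKM with LPS and 2961 FPKM in control. For all 3 the LPS library was the lowest, and the other libraries lay close together.

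The complex V mRNAs encode parts of the membrane sector of ATP synthase and overlap on one transcript. mt-Atp8 had 7143 FPKM with harmine plus LPS, 5377 FPKM with LPS and 6103 FPKM in control. mt-Atp6, the proton channel subunit, had 5169.9 FPKM with harmine plus LPS, 3743 FPKM with LPS and 4689 FPKM in control. mt-Cytb, cytochrome b of complex III, had 4424 FPKM with harmine plus LPS, 3220.0 FPKM with LPS and 3877 FPKM in control. These 3 stood above control with harmine plus LPS and below it with LPS.

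The 7 complex I mRNAs, which encode the proton-pumping membrane arm of NADH dehydrogenase, had lower levels than the other 6 mRNAs in each library. mt-Nd1 had 2781 FPKM with harmine plus LPS, 2129 FPKM with LPS and 2602 FPKM in control. mt-Nd2 had 1424 FPKM with harmine plus LPS, 958 FPKM with LPS and 1311 FPKM in control. mt-Nd4 had 1347 FPKM with harmine plus LPS, 927 FPKM with LPS and 1233 FPKM in control. In each of these the harmine plus LPS library was the highest and the LPS library the lowest. mt-Nd5 had 1059 FPKM with harmine plus LPS, 730.1 FPKM with LPS and 783 FPKM in control. mt-Nd4l, which shares a transcript with mt-Nd4, had 982 FPKM with harmine plus LPS, 803 FPKM with LPS and 819 FPKM in control. For both, LPS and control were near each other and harmine plus LPS stood apart. mt-Nd6 had 717 FPKM with harmine plus LPS, 469 FPKM with LPS and 637 FPKM in control. mt-Nd3 was the lowest mRNA, with 349 FPKM with harmine plus LPS, 252 FPKM with LPS and 356 FPKM in control.

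The rRNAs of the mitochondrial ribosome carry shorter A tails than the mRNAs do. mt-Rnr1, the 12S rRNA, had 192 FPKM with harmine plus LPS, 179 FPKM with LPS and 174 FPKM in control. mt-Rnr2, the 16S rRNA, had 148 FPKM with harmine plus LPS, 115 FPKM with LPS and 134 FPKM in control. For mt-Rnr2 the LPS library was the lowest, as for the mRNAs, and for mt-Rnr1 the control was.

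**Figure D1:**
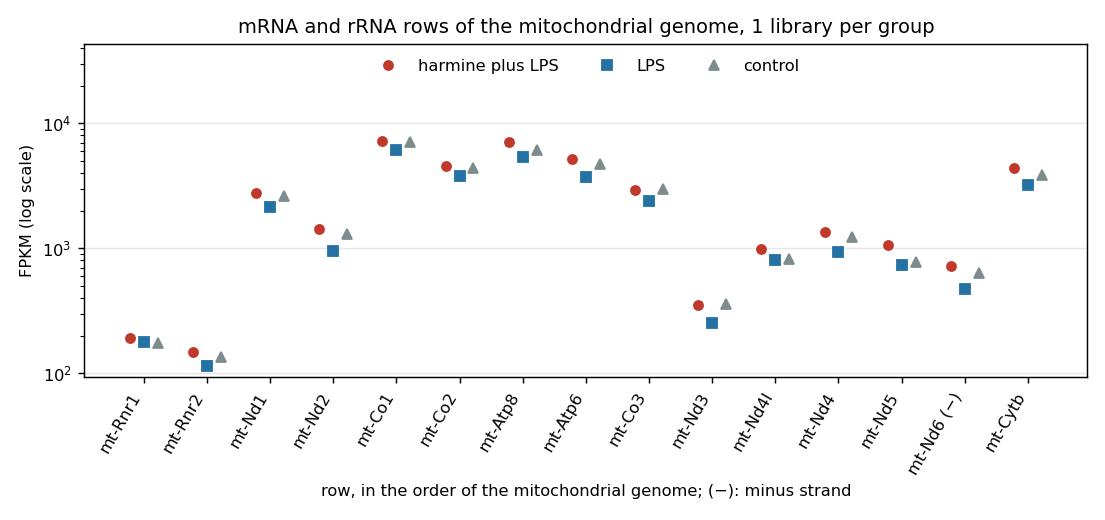
FPKM on a log axis for the 13 mRNA and 2 rRNA rows in genome order; each point is 1 library (harmine plus LPS, LPS, control). The mRNAs run from 252 FPKM (mt-Nd3 with LPS) to 7197 FPKM (mt-Co1 with harmine plus LPS), and the LPS point is the lowest of the 3 for every mRNA.

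A large part of these levels is shared with a nuclear copy of the mitochondrial genome. A stretch of chromosome 1, chr1:24611535-24616197 on the minus strand (mm10), carries 7 annotated pseudogenes in 4663 bases, and each matches 1 mitochondrial mRNA over at least 100 bases. In 5 the aligned bases were identical, and 2 held 1 difference each. Both stretches that differ are printed to show how alike the copies are, 5′ to 3′ from the first aligned base, with the base that differs in capitals. Counted from 1 at the 5′ end of the mitochondrial gene, the differences are T3C in mt-Nd3 and A1066T in mt-Co1, with the mitochondrial base first.
mt-Nd3, MT:9459-9488, plus strand: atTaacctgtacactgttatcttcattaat
Gm28438, chr1:24613090-24613119, minus strand: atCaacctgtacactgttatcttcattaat
mt-Co1, MT:6390-6419, plus strand: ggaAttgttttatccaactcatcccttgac
Gm29216, chr1:24616159-24616188, minus strand: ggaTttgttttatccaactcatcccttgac

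For 5 of the 7 mRNAs, the copy held about as many counts as the gene it matches. Gm10925, the copy of mt-Atp6, had 238135 counts beside 225094 on mt-Atp6 with harmine plus LPS, 163163 beside 153345 with LPS, and 224694 beside 211530 in control. Gm10222, the copy of mt-Nd4l, had 18765 beside 18648 with harmine plus LPS, 14246 beside 14352 with LPS, and 16180 beside 16122 in control. For the 5 mRNAs covered over nearly their whole length (mt-Co2, mt-Atp6, mt-Co3, mt-Nd3 and mt-Nd4l), the copy held between 0.945 and 1.06 times the counts of the mitochondrial row in every library. mt-Nd4 is covered over 63.6% of its length by Gm28439 and mt-Co1 over 31.3% by Gm29216, and their copies held 0.358 and 0.0851 times the counts of the gene with harmine plus LPS, 0.351 and 0.0862 times with LPS, and 0.324 and 0.102 times in control. Reads from identical stretches cannot be assigned to a genome, so the deposited FPKM of these 7 mRNAs is uncertain, as is its rank against mt-Nd1, mt-Nd2, mt-Nd5, mt-Nd6 and mt-Cytb, which have no row in that block. The end of mt-Atp8 overlaps mt-Atp6, so it lies in the stretch that Gm10925 matches. A copy of mt-Atp8 was not analysed here, nor were copies of the tRNAs, which are shorter than 100 bases. The deposited FPKM of mt-Atp8 and of the tRNA rows may therefore be uncertain as well.

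Adding the copies changed the levels more than the differences between libraries. With its copy, mt-Atp6 stood at 10639 FPKM with harmine plus LPS, 7725 FPKM with LPS and 9670.3 FPKM in control, while mt-Co1 with its copy stood at 7809.5 FPKM with harmine plus LPS, 6662 FPKM with LPS and 7821 FPKM in control. The difference of mt-Co1 in harmine plus LPS against control, 0.02 log2 as deposited, was -0.0020 with its copy, a change of sign at a size near 0. mt-Nd4l and mt-Nd4, which lie on one transcript, stood in a ratio of 0.729 with harmine plus LPS, 0.866 with LPS and 0.665 in control as deposited. With the copies added the ratio was 1.08 with harmine plus LPS, 1.28 with LPS and 1.01 in control. The copies took 1.25% of all counts with harmine plus LPS, 0.984% with LPS and 1.21% in control. Adding them to the mitochondrial rows gave shares of 5.31% with harmine plus LPS, 4.16% with LPS and 5.00% in control. How reads matching both gene and copy were counted is not given in the sources used. If each such read was counted at both places, the levels, ratios and shares with copies count it more than once. A copy with about as many counts as its gene can come from split reads or from such repeated counting. Which of these applied was not tested.

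**Figure D2:**
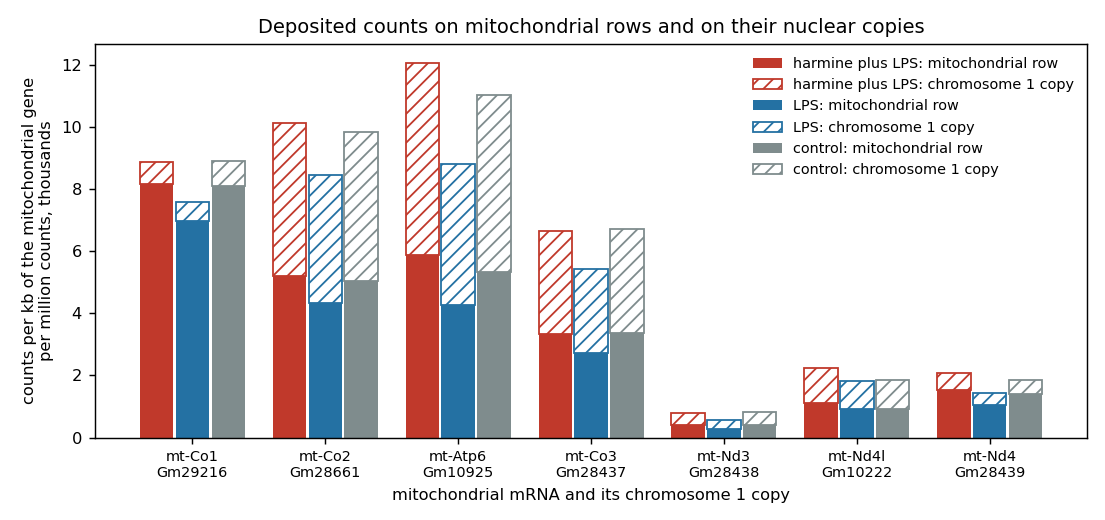
Deposited counts scaled by the length of the mitochondrial gene and by the total of the library, for 7 mRNAs; filled bars are the mitochondrial row, hatched bars the matching chromosome 1 copy stacked on it, and each bar is 1 library. Hatched and filled parts are nearly equal for mt-Co2, mt-Atp6, mt-Co3, mt-Nd3 and mt-Nd4l, whose copies held 0.945 to 1.06 times the counts of the gene. Stacked bars may count a read more than once if reads matching gene and copy were counted at both.

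The first comparison asked what LPS did to these transcripts. All 13 mRNAs stood lower with LPS than in control, by a median of -0.29 on the scale of log2(FPKM + 1), against -0.13 for the 12197 genes with at least 1 FPKM in some library. The range ran from -0.49 for mt-Nd3 and -0.45 for mt-Nd2 to -0.10 for mt-Nd5 and -0.03 for mt-Nd4l. No mRNA reached 1.5-fold lower, which 19.3% of all tested genes did. As a plain FPKM ratio, LPS over control was 0.709 for mt-Nd3 (95% counting interval 0.661 to 0.760), 0.731 for mt-Nd2 (0.716 to 0.746) and 0.737 for mt-Nd6 (0.707 to 0.769). It was 0.932 for mt-Nd5 (0.914 to 0.9496) and 0.980 for mt-Nd4l (0.937 to 1.03), so the interval of mt-Nd4l reached 1. These intervals come from the split of read pairs between the libraries and leave out variation between cultures. 16S mt-Rnr2 stood at a ratio of 0.852 (0.810 to 0.896) and 12S mt-Rnr1 at 1.03 (0.977 to 1.09).

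The second comparison asked how harmine given ahead of LPS changed the picture. All 13 mRNAs stood higher with harmine plus LPS than with LPS alone, by a median of 0.46 log2, against 0.10 for all tested genes. The row of the minus-strand mRNA mt-Nd6 had the highest ratio of harmine plus LPS over LPS, 1.53 (1.47 to 1.59). It was the one mRNA row past 1.5-fold, a size reached by 5.3% of all tested genes. After median-of-ratios or upper-quartile scaling 0 mRNAs passed 1.5-fold. Whether strand entered the authors' counting is not given in the sources used, so the mt-Nd6 row may hold plus-strand reads. mt-Nd2 followed at 1.49 (1.46 to 1.52), mt-Nd4 and mt-Nd5 at 1.45 (1.43 to 1.48 for each), and mt-Nd3 and mt-Atp6 both at 1.38 (1.29 to 1.49 and 1.36 to 1.40). The complex IV mRNAs were near the low end, mt-Co3 at 1.24 (1.22 to 1.25), mt-Co2 at 1.21 (1.19 to 1.23) and mt-Co1 at 1.17 (1.17 to 1.18), as was mt-Nd4l of complex I at 1.22 (1.17 to 1.28). Of all tested genes, 10.2% stood at or above the median of the mitochondrial mRNAs. The rRNAs stood at 1.30 (1.23 to 1.36) for mt-Rnr2 and 1.07 (1.02 to 1.13) for mt-Rnr1.

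The size of this difference moved with the scaling between libraries, and its direction for the mRNAs did not under the 4 scalings tried. Upper-quartile scaling moved the median of all tested genes by more than 0.1, to -0.02 log2 both in harmine plus LPS against LPS and in LPS against control, and median-of-ratios scaling brought it to 0.00071 in harmine plus LPS against LPS. Relative to the median of all genes, the mitochondrial mRNAs stood 0.36 log2 higher with harmine plus LPS than with LPS as deposited, 0.34 after median-of-ratios scaling and 0.33 after upper-quartile scaling. In LPS against control the same measure was -0.16 as deposited, -0.15 after median-of-ratios scaling and -0.13 after upper-quartile scaling. All 13 mRNAs remained higher with harmine plus LPS than with LPS under each scaling. In LPS against control 12 of 13 were lower after median-of-ratios or TPM scaling and 11 after upper-quartile scaling, the exceptions being mt-Nd4l under all 3 of these and mt-Nd5 under the last.

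**Figure D3:**
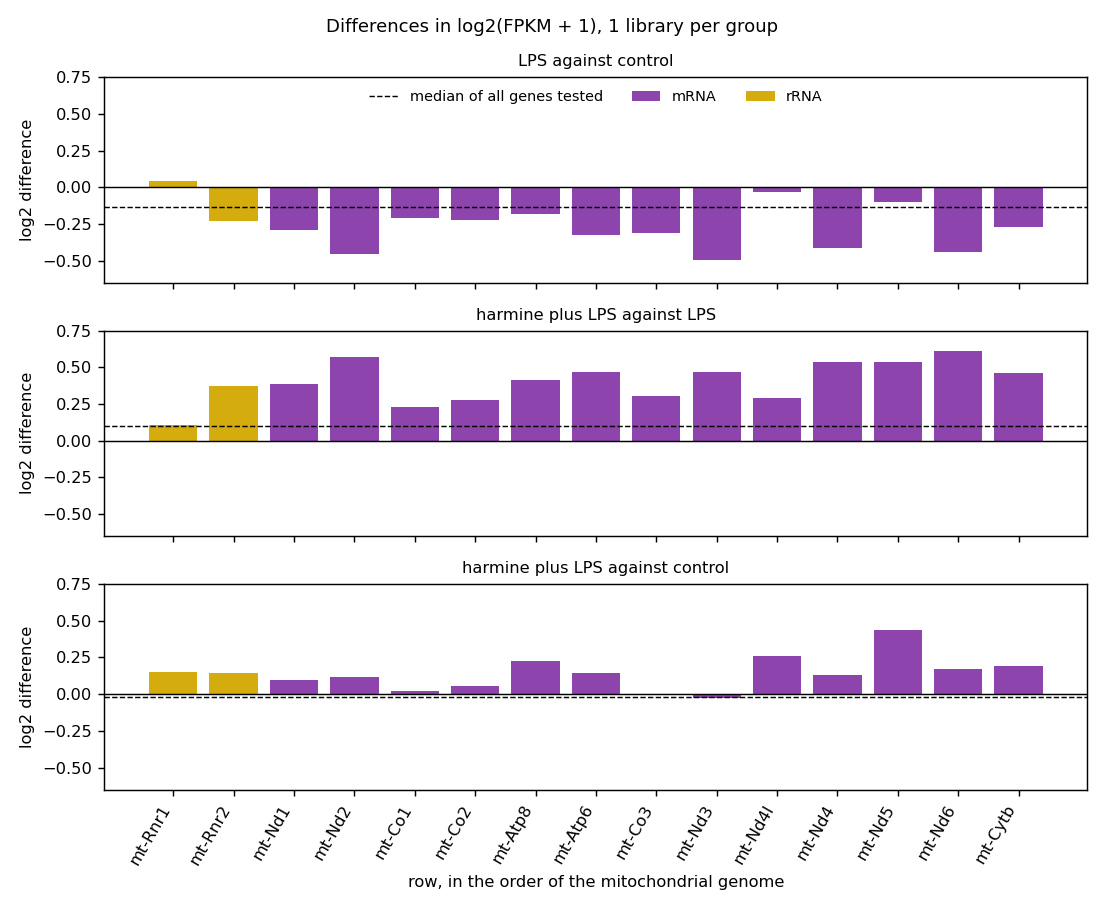
Difference in log2(FPKM + 1) for the 13 mRNA and 2 rRNA rows in genome order, in LPS against control, harmine plus LPS against LPS and harmine plus LPS against control. Each bar compares 1 library with 1 library, and dashed lines mark the median of all tested genes (-0.13, 0.10 and -0.02). The mRNA bars are all below 0 in the first panel and all above 0 in the second.

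Against control, the harmine plus LPS library held 11 of 13 mitochondrial mRNAs higher and 2 lower, with a median of 0.13 log2 beside -0.02 for all tested genes. None reached 1.5-fold, which 12.3% of tested genes did upward and 13.5% downward. mt-Nd5 stood furthest above control, at a ratio of 1.35 (1.33 to 1.38), ahead of mt-Nd4l at 1.20 (1.15 to 1.25) and mt-Atp8 at 1.17 (1.15 to 1.19). mt-Co3 at 0.995 (0.980 to 1.01) and mt-Nd3 at 0.980 (0.921 to 1.04) had intervals that reached 1. After median-of-ratios scaling 9 mRNAs were above control and 4 below (mt-Co1, mt-Co2, mt-Co3 and mt-Nd3). This comparison shares the control library with the first and the harmine plus LPS library with the second, so the 3 are not independent.

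The mRNAs did not all differ by the same amount. From the lowest to the highest, their log2 differences spanned 0.47 in LPS against control and 0.38 in harmine plus LPS against LPS. In harmine plus LPS against control they spanned 0.46. Of the summed FPKM of the 13 mRNAs, mt-Co1 made up 17.9% with harmine plus LPS, 19.8% with LPS and 19.2% in control. mt-Nd2 made up 3.55% with harmine plus LPS, 3.10% with LPS and 3.55% in control, and mt-Nd5 2.64%, 2.36% and 2.12% in those libraries in the same order. mt-Nd6, against the median of the 12 plus-strand mRNAs, differed by -0.16 log2 in LPS against control and by 0.18 in harmine plus LPS against LPS. These within-library shares do not depend on scaling between libraries. In them, the mRNAs matched on chromosome 1 enter with their mitochondrial row alone. A tails were not measured, so unequal capture of mt-Nd6 and the other mRNAs by poly(A) selection was not tested. The part of any plus-strand reads in the mt-Nd6 row was not tested either.

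Nuclear genes for the same complexes were set beside the mitochondrial ones, from a list of 73 subunits of complexes I, III, IV and V. With LPS all 73 stood below control, by a median of -0.47 log2, and 22 were 1.5-fold or more lower, beside 19.3% of all tested genes. In harmine plus LPS against LPS their median was 0.07, 56 stood higher and 17 lower, and none reached 1.5-fold either way, where 5.3% of tested genes did upward and 3.35% downward. This direction rests on the scaling: their median was -0.05 after median-of-ratios scaling, with 49 of 73 lower, and -0.07 after upper-quartile scaling, with 54 lower. In LPS against control all 73 stayed lower under 3 of the 4 scalings and 72 after upper-quartile scaling. Against control, all 73 were lower with harmine plus LPS under each scaling, by a median of -0.41, and 15 by 1.5-fold or more, beside 13.5% of all tested genes and the median of 0.13 for the mitochondrial mRNAs. The median of the mitochondrial mRNAs minus that of the nuclear subunits was 0.18 log2 in LPS against control, 0.39 in harmine plus LPS against LPS and 0.54 in harmine plus LPS against control.

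By complex, the values overlapped less in harmine plus LPS against LPS than in LPS against control. In LPS against control, 15 of 36 nuclear subunits of complex I and 3 of 11 of complex IV reached the lowest mitochondrial value of their complex. In complex I, the 7 mitochondrial mRNAs ran from 0.29 to 0.61 log2 in harmine plus LPS against LPS and the 36 nuclear subunits from -0.21 to 0.29, and no nuclear subunit reached the lowest mitochondrial value, though the nearest came within rounding of it. Ndufv3, that nearest subunit, which belongs to the NADH-oxidizing module, had 6.48 FPKM with harmine plus LPS, 5.12 FPKM with LPS and 11.4 FPKM in control. As a plain FPKM ratio of harmine plus LPS over LPS, Ndufv3 stood above the 1.22 of mt-Nd4l. The gap in complex I thus rests on the 1 FPKM added before the logarithm. In complex III, mt-Cytb stood at 0.46 and the 9 nuclear subunits between 0.01 and 0.29. In complex IV, the 3 mitochondrial mRNAs ran from 0.23 to 0.30 and the 11 nuclear subunits from -0.16 to 0.24, and 1 of the 11, Cox6a1, reached the lowest mitochondrial value. Cox5a, at the low end of these, had 50.6 FPKM with harmine plus LPS, 56.6 FPKM with LPS and 87.2 FPKM in control. In complex V, mt-Atp8 and mt-Atp6 stood at 0.41 and 0.47, and the 17 nuclear subunits between -0.25 and 0.21. Atp5c1, the rotating gamma subunit, had 75.9 FPKM with harmine plus LPS, 75.02 FPKM with LPS and 138 FPKM in control. Complex II has no mitochondrial gene, and its 4 nuclear subunits had a median of -0.80 in LPS against control and 0.15 in harmine plus LPS against LPS.

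**Figure D4:**
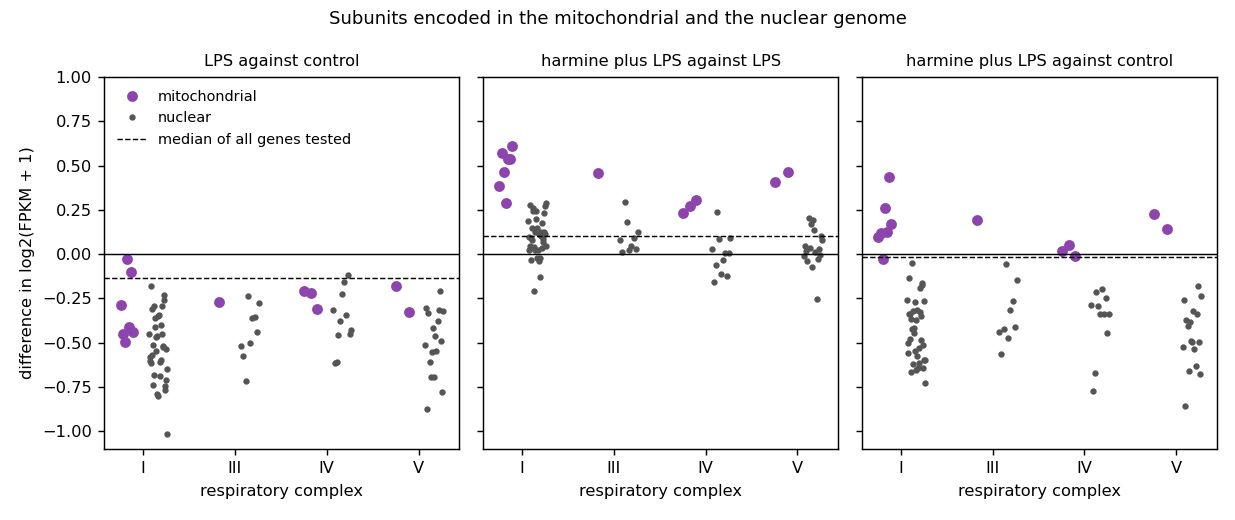
Difference in log2(FPKM + 1) of respiratory chain subunits in the 3 comparisons; large points are the 13 mitochondrial mRNAs, small points the 73 nuclear subunits, split by complex, and dashed lines mark the median of all tested genes. In harmine plus LPS against control, 11 of 13 mitochondrial mRNAs lie above 0 and all 73 nuclear subunits below it.

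The tRNA rows differed more than the mRNAs, on far fewer reads. In LPS against control, 12 of 22 stood 1.5-fold or more lower, 5 stood 2-fold or more lower and 3 stood 4-fold or more lower, where 19.3%, 7.21% and 0.705% of all tested genes did, and none was 1.5-fold higher, which 11.7% of all tested genes were. In harmine plus LPS against LPS, 4 of 22 stood 1.5-fold or more higher and none 2-fold, where 5.3% and 0.664% of tested genes did, and none stood 1.5-fold lower. The 12 became 10 after upper-quartile scaling, and the number at 4-fold was 3 under each of the 4 scalings but 1, mt-Th, with a pseudocount of 5 FPKM. Of the 12, 9 had counting intervals of LPS over control that held 1, with 4 counts taken as 1 read pair. Every tRNA row is shorter than a read, so a fragment adds fewer than 4 counts to it. Intervals of tRNA rows are therefore wider than counting error alone, and those of the 9 do not settle whether a difference was detectable. mt-Tr, among the 9, passed 1 FPKM through control alone. All 22 passed 1 FPKM in at least 1 library, but mt-Tv did so only with harmine plus LPS and mt-Tr only in control, while mt-Tg fell under it with LPS. A free tRNA is shorter than the inserts selected for these libraries and is not polyadenylated as an mRNA is, so mature tRNA and longer RNA running through a tRNA cannot be told apart in these rows. No source used here states whether strand entered the authors' counting, so a minus-strand tRNA may hold reads of the plus-strand transcript across it.

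The 3 rows at 4-fold or more are neighbours: mt-Th, mt-Ts2 and mt-Tl2, for histidine, a serine and a leucine, lie side by side between mt-Nd4 and mt-Nd5. They are printed because this short cluster carried the largest differences of any mitochondrial row. The capital A is the base annotated in both mt-Ts2 and mt-Tl2, and the capitals of mt-Nd5 mark its start codon, which follows mt-Tl2 with no base between.
mt-Th, MT:11546-11612, plus strand: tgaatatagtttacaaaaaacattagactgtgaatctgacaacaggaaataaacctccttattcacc
mt-Ts2, MT:11613-11671, plus strand: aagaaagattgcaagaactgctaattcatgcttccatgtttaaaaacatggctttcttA
mt-Tl2, MT:11671-11741, plus strand: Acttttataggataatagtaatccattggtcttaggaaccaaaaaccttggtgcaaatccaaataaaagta
mt-Nd5, MT:11742-11771, plus strand: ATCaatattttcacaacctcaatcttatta

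mt-Th had 2.44 FPKM with harmine plus LPS, 3.36 FPKM with LPS and 29.8 FPKM in control, from 11, 14 and 133 deposited counts in those libraries. mt-Ts2 had 1.79 FPKM with harmine plus LPS, 2.34 FPKM with LPS and 22.5 FPKM in control. mt-Tl2 had 1.84 FPKM with harmine plus LPS, 1.56 FPKM with LPS and 13.05 FPKM in control. In each row the control library stood far above both LPS libraries, which lay near each other. The ratio of LPS over control was 0.113 for mt-Th (0.0343 to 0.375), 0.104 for mt-Ts2 (0.0114 to 0.407) and 0.120 for mt-Tl2 (0.0154 to 0.585). Harmine plus LPS over control gave 0.0819 (0.0185 to 0.300), 0.0797 (0.0107 to 0.383) and 0.141 (0.0144 to 0.551) for the same rows, a comparison in which 0.385% of tested genes lay at least 4-fold below control. Harmine plus LPS over LPS gave intervals that held 1 for all 3 rows. One fragment can cover adjacent rows, so the 3 are not independent measurements. A fragment also adds fewer than 4 counts to a row shorter than a read, which makes these intervals wider than counting error alone.

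The difference at this site exceeded that of the mRNAs on either side. Set against the mean FPKM of mt-Nd4 and mt-Nd5, mt-Th stood at 0.203% with harmine plus LPS, 0.405% with LPS and 2.96% in control. mt-Ts2 stood at 0.149% with harmine plus LPS, 0.282% with LPS and 2.23% in control, and mt-Tl2 at 0.153%, 0.188% and 1.29% in those libraries. Counts over the 3 rows summed to 27 with harmine plus LPS, 30 with LPS and 283 in control. Of 12197 tested genes, 11 stood as low as mt-Th in LPS against control, mt-Th included. Among the 3405 genes at 10 to 40 FPKM in control, 1.23% stood 4-fold or more lower with LPS. The rows were singled out after their values were seen.

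**Figure D5:**
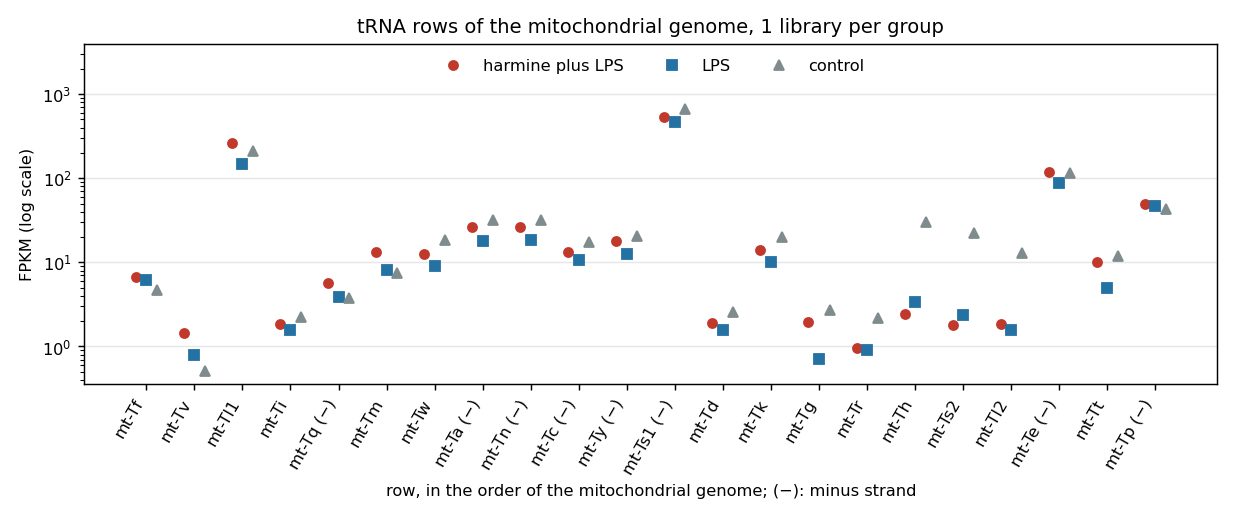
FPKM on a log axis for the 22 mitochondrial tRNA rows in genome order; each point is 1 library, and minus-strand rows are marked. At mt-Th, mt-Ts2 and mt-Tl2 the control point stands at 29.8, 22.5 and 13.05 FPKM, above the 1.56 to 3.36 FPKM of the libraries with LPS.

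The 5 tRNAs between mt-Nd2 and mt-Co1 form another cluster, and their values moved together. mt-Tw had 12.4 FPKM with harmine plus LPS, 9.08 FPKM with LPS and 18.6 FPKM in control. mt-Ta had 26.4 FPKM with harmine plus LPS, 17.9 FPKM with LPS and 31.8 FPKM in control, and mt-Tn 26.1 FPKM with harmine plus LPS, 18.2 FPKM with LPS and 31.6 FPKM in control. For these rows the LPS library was lowest and control highest, and the counting intervals of all ratios among libraries held 1. mt-Tc had 13.2 FPKM with harmine plus LPS, 10.6 FPKM with LPS and 17.3 FPKM in control, and mt-Ty 18.1 FPKM with harmine plus LPS, 12.7 FPKM with LPS and 20.4 FPKM in control. The order of libraries was the same, and so was the result for the intervals.

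A few tRNA rows stood far above the rest. mt-Ts1, a minus-strand serine tRNA that overlaps the last bases of mt-Co1, had 534 FPKM with harmine plus LPS, 469 FPKM with LPS and 659 FPKM in control. Its ratio was 0.712 (0.633 to 0.797) for LPS over control and 1.14 (1.01 to 1.29) for harmine plus LPS over LPS. Whether mt-Ts1 shares reads with chromosome 1 was not analysed. mt-Tl1, a leucine tRNA between the 16S rRNA and mt-Nd1, had 259.6 FPKM with harmine plus LPS, 147 FPKM with LPS and 212 FPKM in control. Its ratio of harmine plus LPS over LPS was 1.77 (1.46 to 2.14), above that of every mRNA, and that of LPS over control was 0.691 (0.567 to 0.844). mt-Te, a glutamate tRNA beside mt-Nd6, had 119.9 FPKM with harmine plus LPS, 86.8 FPKM with LPS and 116 FPKM in control, with a ratio of 1.38 (1.05 to 1.82) for harmine plus LPS over LPS and 0.745 (0.564 to 0.981) for LPS over control. mt-Tp, for proline, had 49.0 FPKM with harmine plus LPS, 46.7 FPKM with LPS and 43.5 FPKM in control, and its neighbour mt-Tt, for threonine, 10.2 FPKM with harmine plus LPS, 4.96 FPKM with LPS and 11.9 FPKM in control. For mt-Tp and mt-Tt the intervals of all ratios held 1.

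The remaining tRNA rows had at most 88 counts in any library, and the intervals of all their ratios held 1. mt-Tk, for lysine, had 14.0 FPKM with harmine plus LPS, 9.98 FPKM with LPS and 20.3 FPKM in control. mt-Tm, for methionine, had 13.1 FPKM with harmine plus LPS, 8.14 FPKM with LPS and 7.49 FPKM in control. mt-Tf, for phenylalanine, had 6.63 FPKM with harmine plus LPS, 6.23 FPKM with LPS and 4.64 FPKM in control. In each, the spread among libraries lay within its counting intervals, which are wider than counting error alone. mt-Tq, for glutamine, had 5.73 FPKM with harmine plus LPS, 3.89 FPKM with LPS and 3.80 FPKM in control. The isoleucine, aspartate, glycine, arginine and valine rows mt-Ti, mt-Td, mt-Tg, mt-Tr and mt-Tv held at most 13 counts in any library. Their counts are too few to read a difference from, the 1.5-fold calls of mt-Tg and mt-Tr included. Their FPKM with harmine plus LPS, LPS and control were 1.85, 1.55 and 2.26 for mt-Ti, 1.91, 1.56 and 2.55 for mt-Td, 1.96, 0.704 and 2.72 for mt-Tg, 0.957, 0.913 and 2.202 for mt-Tr, and 1.44, 0.787 and 0.508 for mt-Tv.

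Nuclear genes that transcribe and maintain the mitochondrial genome had, over 18 genes, a median of -0.14 log2 in LPS against control, close to the -0.13 of all tested genes, and of 0.28 in harmine plus LPS against LPS, beside 0.10. With upper-quartile scaling these medians were -0.01 and 0.17. As deposited none passed 1.5-fold in either comparison, and with TPM 2 were lower in the first (19.3% of all genes as deposited) and 2 higher in the second (5.3%). Polrmt had 11.3 FPKM with harmine plus LPS, 8.27 FPKM with LPS and 8.88 FPKM in control. Tfb2m, which opens the promoters with it, had 12.5 FPKM with harmine plus LPS, 8.58 FPKM with LPS and 9.42 FPKM in control, and Twnk, the replicative helicase, 16.2 FPKM with harmine plus LPS, 11.0 FPKM with LPS and 15.1 FPKM in control. All 3 were highest with harmine plus LPS. Tfam, which packages the genome and starts its transcription, had 10.8 FPKM with harmine plus LPS, 8.84 FPKM with LPS and 13.1 FPKM in control, and stayed below control in both. Mgme1, a nuclease of mitochondrial DNA replication, had 6.83 FPKM with harmine plus LPS, 4.37 FPKM with LPS and 6.91 FPKM in control.

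Genes that cut, modify, stabilize and degrade mitochondrial RNA had a median of -0.22 log2 in LPS against control, and of 0.22 in harmine plus LPS against LPS, which became -0.08 and 0.09 with upper-quartile scaling. With LPS 4 of 25 were lower by 1.5-fold or more and 1 higher, no more than the 19.3% and 11.7% of all tested genes, and with harmine none reached 1.5-fold. Hsd17b10, a subunit of the RNase P that frees the 5′ ends of tRNAs, had 16.7 FPKM with harmine plus LPS, 12.5 FPKM with LPS and 29.1 FPKM in control. Its catalytic partner Prorp had 7.20 FPKM with harmine plus LPS, 4.96 FPKM with LPS and 4.47 FPKM in control. Ptcd2, a pentatricopeptide repeat protein, had 22.6 FPKM with harmine plus LPS, 15.8 FPKM with LPS and 35.3 FPKM in control. Pnpt1, the polynucleotide phosphorylase that degrades mitochondrial RNA and an interferon-responsive gene, was the one gene higher, with 37.8 FPKM with harmine plus LPS, 42.9 FPKM with LPS and 19.6 FPKM in control. Its helicase partner Supv3l1 had 15.9 FPKM with harmine plus LPS, 11.9 FPKM with LPS and 15.9 FPKM in control. Lrpprc had 13.4 FPKM with harmine plus LPS, 10.7 FPKM with LPS and 16.1 FPKM in control, and Slirp 5.78 FPKM with harmine plus LPS, 7.59 FPKM with LPS and 6.94 FPKM in control, so the 2 partners went opposite ways with harmine.

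The label gives lung as tissue for this macrophage line. Of 9 macrophage markers 8 reached 1 FPKM, all but Mertk. In LPS against control 3 of the 8 stood higher and 5 lower. Cd68 had 602 FPKM with harmine plus LPS, 444 FPKM with LPS and 522 FPKM in control. Lyz2 had 283 FPKM with harmine plus LPS, 525 FPKM with LPS and 967 FPKM in control. Csf1r had 68.2 FPKM with harmine plus LPS, 65.8 FPKM with LPS and 259 FPKM in control. Adgre1, higher with LPS, had 9.88 FPKM with harmine plus LPS, 16.4 FPKM with LPS and 5.70 FPKM in control. Summed FPKM of the macrophage markers, most of it Cd68, Lyz2 and Csf1r, was 1109.9 with harmine plus LPS, 1208 with LPS and 1909 in control. In harmine plus LPS against LPS the 8 had a median difference of -0.58 log2, with 3 higher and 5 lower. The lung epithelial markers Sftpb, Ager, Hopx and Foxj1 stayed under 1 FPKM. Summed FPKM of 6 lung epithelial markers was 6.91 with harmine plus LPS, 5.01 with LPS and 2.00 in control, most of it Epcam. Summed markers of other cell types were also higher in the libraries with LPS, though some single markers, Ttr among them, were lower with LPS than in control. Summed FPKM of 3 hepatocyte markers was 34.7 with harmine plus LPS, 30.2 with LPS and 9.43 in control, nearly all of it Apoa1, with Alb at 0.0765 FPKM with harmine plus LPS and at 0 FPKM with LPS and in control. Summed FPKM of 6 fibroblast markers was 9.35 with harmine plus LPS, 9.41 with LPS and 1.28 in control, of 6 muscle and heart markers 1.65, 0.654 and 0.142 in those libraries, of 5 endothelial markers 0.536, 0.341 and 0.261, and of 7 lymphocyte markers 0.726, 0.329 and 0.121. The part of such RNA in the mitochondrial differences was not tested.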

How the data were processed

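Per the labels' protocols, poly(A) RNA went into dUTP-marked libraries, read from both ends. Build mm10 and the tools StringTie 2.1.6, HISAT2 2.2.1 and cutadapt 1.9, with edgeR and DESeq2, stand in the submitters' processing notes. Which step each served, the strand setting and the handling of reads with several matches are not given in the sources used. The authors deposited an FPKM value per gene and library and an estimated count per gene, unnormalized, per the file headers. Counts of 4 were more frequent than counts of 3 (994 genes and 619 genes with harmine plus LPS), so 4 counts were taken as 1 read pair.

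Differences are log2(FPKM + 1) in one library minus another, over 12197 genes with at least 1 FPKM in 1 library; they understate changes of low rows. With 1 library per group no test was possible. Counting intervals are 95% exact binomial (scipy 1.17.1) and shares use Wilson intervals. Copies were found with blastn 2.17.0 among GENCODE M21 transcripts (at least 80% identity over 100 bases), from which the sequences come. Scripts were tested on simulated data. Rows were named by rule: every mt- row, up to 4 members of each nuclear list per comparison, and Polrmt, Tfam, Lrpprc, Slirp, Ppargc1b and Twnk. Marker genes named singly were chosen after their values were seen. Members and lists were chosen with earlier results of these data known.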

Additional observations from a re-analysis of the deposited data

How the results depend on the processing

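No paired analysis was possible because each group holds 1 library, and for the same reason no replicate could be left out. Of the recomputed values, 85 stayed within counting error or, for counts of genes, within 1.5 times, and 23 moved. Some of the 85 could hardly move by construction, so their number does not measure stability. All mitochondrial mRNAs pass the filter, and rescaling libraries barely touches mt-Nd6 set against the other mRNAs. None of the recomputed values changed direction. The nuclear subunit median in harmine plus LPS against LPS, computed apart from them, turned to -0.05 with median-of-ratios and -0.07 with upper-quartile scaling. The mitochondrial mRNA median in LPS against control was -0.26 with TPM and with median-of-ratios size factors and -0.15 with upper-quartile scaling. In harmine plus LPS against LPS it was 0.34 with median-of-ratios and 0.32 with upper-quartile scaling, where 0 mRNAs passed 1.5-fold, as none did at a 2-fold threshold. In harmine plus LPS against control it was 0.040 with median-of-ratios scaling. The mitochondrial minus nuclear median in LPS against control was 0.22 with a pseudocount of 0.1 FPKM, 0.15 with 5 FPKM, 0.21 with TPM and 0.21 with upper-quartile scaling, and in harmine plus LPS against control 0.51 with 5 FPKM. Shares of counts were 4.005%, 3.13% and 3.74% over protein-coding rows (harmine plus LPS, LPS, control), 12.9%, 10.0% and 11.7% as shares of FPKM, and 5.31%, 4.16% and 5.00% with the chromosome 1 copies, an alternative chosen after seeing the data. Shares with the chromosome 1 copies may count the same reads more than once. The differences of mt-Th, mt-Ts2 and mt-Tl2 in LPS against control moved within their counting intervals under all 6 alternatives tried for them. Those intervals are wider than counting error alone. With a pseudocount of 5 FPKM, mt-Ts2 at -1.91 and mt-Tl2 at -1.46 were no longer 4-fold lower. The 6 alternatives were also chosen after seeing the data. Scaling shifts all genes alike by construction, and the cause of the other shifts was not tested. Depth limits the tRNA rows.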

Other observations

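Values of the genes that translate mitochondrial mRNAs follow. Of 17 mitochondrial aminoacyl-tRNA synthetases, 6 stood 1.5-fold or more lower in LPS against control and none higher, beside 19.3% and 11.7% of all tested genes, with a median of -0.47 log2 beside -0.13. With upper-quartile scaling 3 stood that much lower. In harmine plus LPS against LPS the median was 0.26 and 1 passed 1.5-fold (5.3% of all tested genes did), Fars2, which charges phenylalanine tRNA, at 4.88 FPKM with harmine plus LPS, 2.57 FPKM with LPS and 3.06 FPKM in control. Cars2, for cysteine, had 2.66 FPKM with harmine plus LPS, 1.74 FPKM with LPS and 5.94 FPKM in control. Of 12 translation factors, 2 were 1.5-fold or more lower with LPS, near the share of all tested genes, and 1 was with median-of-ratios and 0 with upper-quartile scaling. The initiation factor Mtif2 was the one at 1.5-fold higher in harmine plus LPS against LPS as deposited, a call lost with either of those scalings, at 9.61 FPKM with harmine plus LPS, 5.72 FPKM with LPS and 6.63 FPKM in control.

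The 11 regulators of mitochondrial biogenesis at 1 FPKM had a median of -0.16 log2 in LPS against control, beside -0.13 for all tested genes. In that comparison 2 stood 1.5-fold or more lower and 1 higher, where 19.3% and 11.7% of all tested genes did. Among them, the coactivator Ppargc1b had 1.05 FPKM with harmine plus LPS, 1.14 FPKM with LPS and 4.05 FPKM in control. Myc had 52.4 FPKM with harmine plus LPS, 26.96 FPKM with LPS and 0.905 FPKM in control. Of 7 mitophagy genes, 6 stood below control with LPS, with a median of -0.41 log2, and 1 each passed 1.5-fold lower and higher (19.3% and 11.7% of all tested genes did). Phb2, a prohibitin, was the one at 1.5-fold or more lower, at 73.8 FPKM with harmine plus LPS, 61.0 FPKM with LPS and 98.3 FPKM in control. With upper-quartile scaling that call was lost, and 0 of the 7 stood that much lower. The adaptor Sqstm1 was the one at 1.5-fold or more higher, at 242 FPKM with harmine plus LPS, 274 FPKM with LPS and 68.8 FPKM in control.

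Copies of mitochondrial genes elsewhere in the nuclear genome drew few counts. Of 8 such rows outside the chromosome 1 block, at 92.4% to 97.6% identity, 3 had over 100 counts in some library. Gm13340, a copy of mt-Co1 on chromosome 2, had 1315 counts with harmine plus LPS, 965 with LPS and 1239 in control.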
